A study of Mus musculus with 6 samples.

Results

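The genes described here are 45 protein-coding genes of nucleolar ribosome biogenesis and Myc, a transcription factor gene that is known to drive ribosome production. They were given as a list by name, and a probe set was taken for a gene where the platform annotation paired it with that gene symbol alone. All 46 genes had at least 1 such probe set, 97 in all, of 18193 genes and 45037 probe sets measured. The samples were 3 arrays of dedifferentiated fat (DFAT) cells and 3 arrays of mature adipocytes (AC) of the mouse, measured on Affymetrix whole-genome expression arrays. The series compared expression before and after dedifferentiation. DFAT cells came from mature adipocytes put into ceiling culture, in which buoyant fat cells attach to the upper wall of a flask. The paper describes growth to semiconfluence before hepatic differentiation and does not state it for the cells on the arrays. DFAT cells are described as a line from GFP transgenic mice, and AC were primary cells of fat tissue. A GFP transgene is not stated for AC, and strain and age are not given in the sources used here. No treatment is stated for either group. It is not stated if the arrays within a group are of different animals or cultures. The p-values therefore cover the spread among these 6 arrays, which may be technical, and do not extend to other DFAT lines.

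Ribosomes are built in the nucleolus. RNA polymerase I transcribes the ribosomal DNA into a long precursor, small nucleolar ribonucleoproteins (snoRNPs) modify and help to fold that RNA, and assembly factors of the small and the large subunit cut it, join it to ribosomal proteins and leave before the subunits enter translation. Growing and dividing cells are known to need more new ribosomes than resting cells, and mature fat cells do not divide. Myc binds DNA as a dimer with Max, often at the E-box sequence CACGTG, and many genes of nucleolar proteins are among its known targets.

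Values are log2 RMA values, in which the authors had corrected the background, normalized the arrays and summarized the probes of a probe set, so that a difference of 1 is a 2-fold difference. Each gene is given by 1 probe set, the one with the highest average on all 6 arrays, and levels of different genes cannot be set against each other. Differences are DFAT cells minus AC, with the standard error (SE) of the limma fit, and a gene rose or fell where its Benjamini-Hochberg adjusted p from limma over all 45037 probe sets was under 0.05. In bulk RNA of this kind, fewer cells of a type and less RNA per cell cannot be told apart.

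The labels were checked against marker genes. Of 13 measured adipocyte markers, 13 fell in DFAT cells and 0 were at background level on the AC arrays, while 11 of 11 proliferation markers rose, with a median difference of 6.19, and 9 of them were at background level on all AC arrays. Fibroblast or stromal markers were mixed. Of 12, 9 rose and 2 fell, both at least 4-fold, and 2 were at background level on all DFAT arrays. Of 3 measured erythroid markers, 1 fell, and all 3 were at background level on all DFAT arrays. Background level was set on each array from 99 probe sets of genes of lens, retina, ear, taste, smell and sperm, as their 95th percentile, and was 5.70 to 5.86 on the DFAT arrays and 5.91 to 6.02 on the AC arrays. AC replicate 1 stood apart. Its Pearson correlation with AC replicates 2 and 3 was 0.971 and 0.969, where that between AC replicates 2 and 3 was 0.991. The 14 endothelial markers averaged 4.37 to 4.41 on the DFAT arrays, against 9.78 on AC replicate 1 and 8.04 and 7.82 on the others. The 14 macrophage and leukocyte markers averaged 4.13 to 4.24 on the DFAT arrays, against 6.35 on AC replicate 1 and 8.04 and 8.21 on the others. In AC, 0 of the endothelial and 1 of the macrophage and leukocyte markers were at background level on all arrays. Of 13 epithelial and mammary markers, 11 fell, and the 13 averaged 4.57, 4.41 and 4.43 on the DFAT arrays, against 9.03, 8.53 and 8.48 on the AC arrays. The 3' minus 5' signal of the actin control probe sets, a sign of RNA quality, was 0.31, 0.29 and 0.32 on the DFAT arrays, against 0.40, 0.55 and 0.55 on the AC arrays, without overlap. For the Gapdh control probe sets that signal was 0.017, -0.025 and 0.001 on the DFAT arrays, against -0.186, -0.046 and -0.008 on the AC arrays. There the groups overlapped, and the AC values were not the higher ones. Of the 46 genes described here, 36 were lower on AC replicate 1 than the mean of the other AC arrays. The part that other cell types or RNA quality had in the results was not tested.

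Of the 46 genes, 40 rose in DFAT cells, 1 fell and 5 did not pass the test. That is 87.0% higher and 2.17% lower, where 22.6% of all genes were higher and 23.8% lower (46.4% in either direction). The 3 DFAT values lay above all 3 AC values for 42 genes (91.3%), against 27.5% of all genes, and below them for 1 gene, against 32.5%. The median difference was 1.27, with quartiles of 0.78 and 1.54, and the median of all genes was -0.10. At least 2-fold increases past the test were found for 30 of the 46 genes (65.2%), against 13.4% of all genes. At least 4-fold increases were found for 4 (8.70%), against 4.78% of all genes, so that the increases were widespread and mostly between 2-fold and 4-fold. Many genes of the array are dim. Of the 11202 genes above background level on at least 1 array, 34.9% were higher, and of the 3549 genes with a mean level between the quartiles of the 46 genes, 7.96 and 9.70, 39.0% were higher and 23.4% lower. Averaged over the 46 genes, the level was 9.44, 9.45 and 9.46 on the DFAT arrays, against 8.02, 8.32 and 8.39 on the AC arrays.
Without AC replicate 1, 40 genes rose and 2 fell, with a median of 1.11. Of all 18193 genes, 4552 then rose and 5347 fell, against 4103 and 4332 with all arrays. When the arrays were centered on 15 reference genes, which moved the median of all genes to -0.61, 31 rose and 2 fell, where 14.1% of all genes were higher and 61.3% lower. Centered on the hybridization controls, which moved that median to 0.36, 41 rose and 0 fell, where 28.1% of all genes were higher and 11.0% lower. Of the 15 reference genes, 9 were themselves called higher and 2 lower in the values as deposited.

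**Figure D1:**
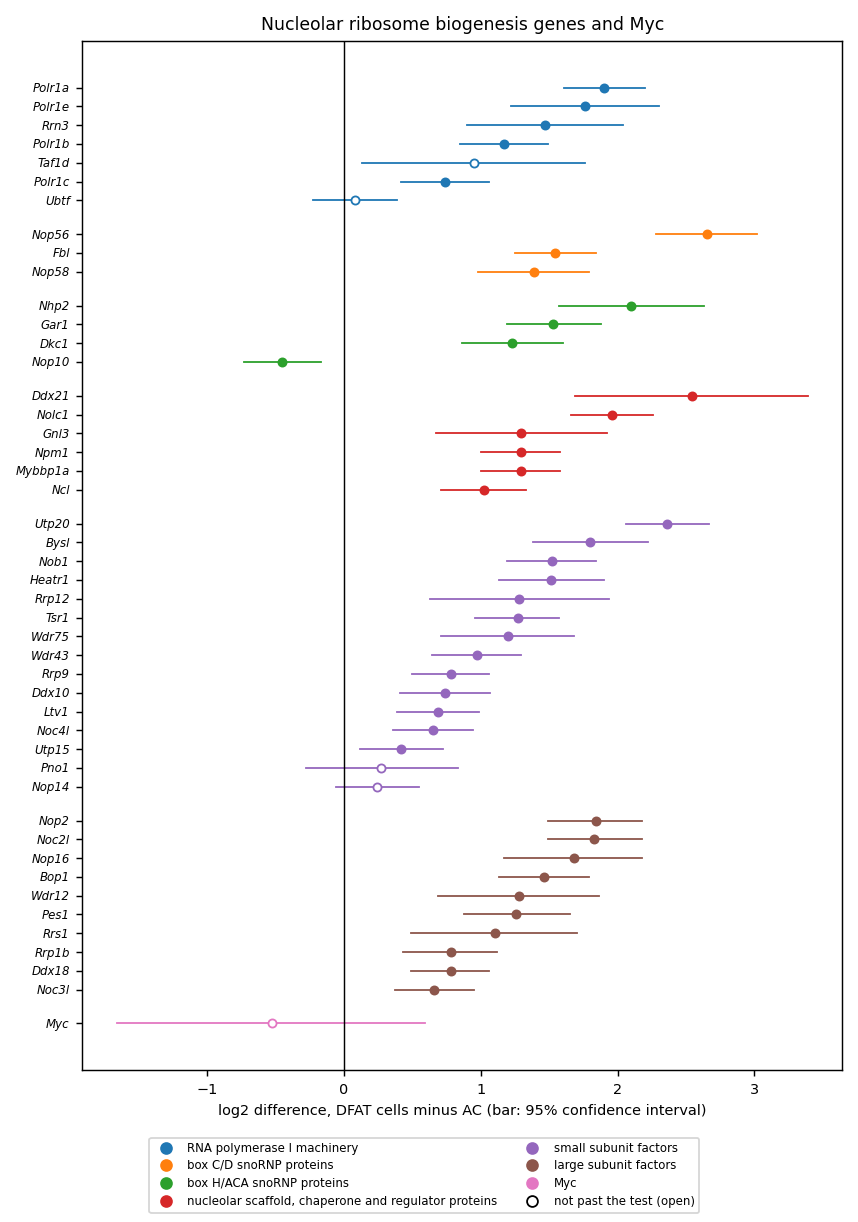
Log2 difference of DFAT cells minus AC for the 46 genes, grouped by role, with 95% confidence intervals from limma. Filled points passed the test and open points did not. Of the 46 genes, 40 lie to the right of 0 and passed the test, and Nop10 is the filled point to the left.

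The RNA polymerase I machinery is where ribosome synthesis starts. Of its 7 genes, 5 rose, 0 fell and 2 did not pass the test, with a median difference of 1.17. Polr1a, the largest catalytic subunit of RNA polymerase I, was 8.86, 8.86 and 8.74 on the DFAT arrays, against 7.00, 6.94 and 6.81 on the AC arrays. The groups lay apart by far more than their spread, and the difference was 1.90 (SE 0.13, adjusted p = 1.22e-05 from limma). Polr1e, a subunit known as PAF53, was 7.76, 7.83 and 7.93 in DFAT cells, against 5.58, 6.54 and 6.12 in AC, a difference of 1.76 (SE 0.23, adjusted p = 0.000552 from limma). Its AC replicate 1 lay under the background level of that array. Rrn3, the factor that couples the polymerase to growth signals, was 1.47 higher (SE 0.25). Polr1b, the other catalytic subunit, was 1.17 higher, but was at background level on all 3 AC arrays, so that its size is not exact. Polr1c, which RNA polymerases I and III share, was 0.74 higher.
Ubtf and Taf1d did not pass the test. Ubtf, which encodes the upstream binding factor, was 9.53, 9.58 and 9.64 in DFAT cells, against 9.41, 9.43 and 9.66 in AC. The groups overlapped, and the difference was 0.08 (95% confidence interval -0.23 to 0.39, adjusted p = 0.676 from limma). It was -0.42 with the arrays centered on the reference genes (adjusted p = 0.0235 from limma). The other probe set of Ubtf, which was at background level on all AC arrays, was 1.37 higher. Taf1d, a subunit of the selectivity factor SL1, was 8.67, 8.31 and 8.27 in DFAT cells, against 6.63, 8.15 and 7.62 in AC. The groups did not overlap, but AC replicate 1 was far below the other AC arrays, and the difference of 0.95 (SE 0.35) missed the threshold (adjusted p = 0.0676 from limma). It passed without AC replicate 2, at 1.29 (adjusted p = 0.0171 from limma). Taf1d has 7 probe sets, and 4 of them rose. The one used here ends in _x_at, an ending for probe sets that may match other transcripts.

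The snoRNPs modify ribosomal RNA, those of the box C/D class by methylation and those of the box H/ACA class by pseudouridylation. All 3 box C/D genes rose. Nop56, a core protein of the box C/D particle, was 11.07, 11.02 and 11.08 in DFAT cells, against 8.70, 8.19 and 8.32 in AC. Its DFAT values differed by no more than 0.06, and its difference of 2.65 was the largest of the 46 genes (SE 0.16, adjusted p = 7.37e-06 from limma), a 6.28-fold difference. Fbl, which encodes the methyltransferase fibrillarin, was 11.11, 11.21 and 11.29 in DFAT cells, against 9.60, 9.63 and 9.74 in AC, a difference of 1.54 (SE 0.13, adjusted p = 3.88e-05 from limma). Nop58, the partner of Nop56 in the particle, was 10.83, 10.77 and 10.69 in DFAT cells, against 9.03, 9.46 and 9.62 in AC. Its difference of 1.39 (SE 0.17, adjusted p = 0.000417 from limma) was the smallest of the 3, and here too the groups did not overlap.

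The box H/ACA particle has 4 proteins, and it also protects the RNA of telomerase. Of its 4 genes, 3 rose and 1 fell. Nhp2 was 11.32, 11.43 and 11.38 in DFAT cells, against 8.74, 9.49 and 9.60 in AC, a difference of 2.10 (SE 0.23, adjusted p = 0.000186 from limma). Gar1 was 9.71, 9.79 and 9.75 in DFAT cells, against 8.20, 8.01 and 8.44 in AC, a difference of 1.53 (SE 0.15, adjusted p = 9.45e-05 from limma). Dkc1, the pseudouridine synthase dyskerin, was 1.23 higher (SE 0.16).
Nop10, the smallest protein of the particle, went the other way. It was 11.63, 11.56 and 11.54 in DFAT cells, against 12.02, 11.98 and 12.08 in AC, and it fell by 0.45 on the log2 scale (SE 0.12, adjusted p = 0.0198 from limma). The groups did not overlap, but the fall was small and rested on 1 of 2 probe sets. The other probe set of Nop10 averaged 10.56 in DFAT cells and 10.55 in AC, a difference of 0.01 (adjusted p = 0.967 from limma). The call was also lost when any DFAT array was left out, with an adjusted p from limma of 0.0548 to 0.0853, and with the arrays centered on the hybridization controls, where the difference was 0.01.

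Nucleolar scaffold, chaperone and regulator proteins were encoded by 6 of the genes, and all 6 rose, each at least 2-fold. Ddx21, an RNA helicase of the nucleolus, was 10.24, 10.12 and 10.19 in DFAT cells, against 6.68, 8.24 and 8.01 in AC. All DFAT values were higher, AC replicate 1 was the lowest AC value by far, and the difference was 2.54 (SE 0.37, adjusted p = 0.000896 from limma). Nolc1, which encodes the snoRNP chaperone Nopp140, was 9.64, 9.65 and 9.70 in DFAT cells, against 7.75, 7.79 and 7.56 in AC, a difference of 1.96 (SE 0.13, adjusted p = 1.12e-05 from limma). Ncl, which encodes nucleolin, had the smallest difference of the group, at 12.30, 12.19 and 12.14 in DFAT cells, against 11.04, 11.31 and 11.20 in AC. Its difference was 1.02 (SE 0.13, adjusted p = 0.000517 from limma), and 3 of its 4 other probe sets also rose. Npm1, the histone and ribosome chaperone nucleophosmin, Gnl3, which encodes nucleostemin, and Mybbp1a, a nucleolar Myb-binding protein, each had a difference of 1.29. Their errors differed, with an SE of 0.27 for Gnl3, whose AC values spread over 1.13, and of 0.13 for Npm1 and 0.12 for Mybbp1a.

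**Figure D2:**
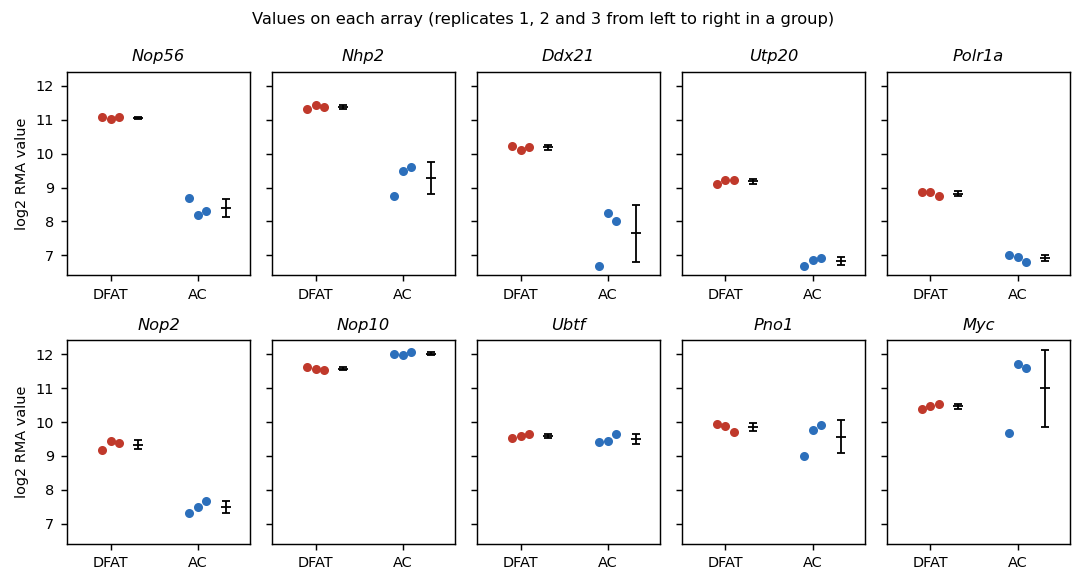
Log2 RMA values of 10 genes on each of the 3 DFAT arrays and 3 AC arrays. Each point is an array, with group mean and SD drawn in black. The groups lie apart for Nop56, Nhp2, Ddx21, Utp20, Polr1a and Nop2, Nop10 is lower in DFAT cells, the groups overlap for Ubtf, Pno1 and Myc, and AC replicate 1 is the low AC point of Ddx21, Pno1 and Myc.

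The 15 small subunit factors include proteins of the processome that forms on the 5' end of the precursor and late factors that travel to the cytoplasm. Of them, 13 rose, 0 fell and 2 did not pass the test, with a median of 0.97, and 8 were higher with the arrays centered on the reference genes. Utp20, a large scaffold of the processome, was 9.10, 9.22 and 9.23 in DFAT cells, against 6.69, 6.85 and 6.93 in AC. The difference was 2.36 (SE 0.13, adjusted p = 4.45e-06 from limma), a 5.14-fold difference with little spread in either group. Bysl, which encodes bystin, was 9.45, 9.74 and 9.64 in DFAT cells, against 7.47, 7.96 and 8.01 in AC, a difference of 1.80 (SE 0.18, adjusted p = 0.00012 from limma). Heatr1, a processome component also known as Utp10 in yeast, was 1.51 higher, and Nob1, the endonuclease that makes the final 3' end of 18S ribosomal RNA, was 1.52 higher.
The other processome genes rose by less. Wdr75 and Wdr43 were 1.20 and 0.97 higher, Rrp9, a protein of the U3 snoRNP, was 0.78 higher, and Ddx10 and Noc4l were 0.74 and 0.65 higher. Utp15 was 0.42 higher (adjusted p = 0.0363 from limma), a call that was lost when any array but AC replicate 1 was left out and whose direction turned, to -0.09, with the arrays centered on the reference genes. Its other probe set, at background level on 1 AC array, was 1.99 higher (adjusted p = 0.000755 from limma). Wdr75 was 0.11 (adjusted p = 0.662 from limma) with a probe set without an _x_at, _s_at or _a_at ending. That probe set was at background level on all DFAT and AC arrays, so it says little about the rise. Of the factors of later steps, Tsr1, Rrp12 and Ltv1 were 1.27, 1.28 and 0.69 higher.
Nop14 and Pno1 did not pass the test. Nop14, a processome protein, was 8.24, 8.14 and 8.16 in DFAT cells, against 7.85, 7.87 and 8.10 in AC. The groups did not overlap but lay close, with a difference of 0.24 (95% confidence interval -0.06 to 0.55, adjusted p = 0.193 from limma). Pno1, the partner of Nob1 on the late small subunit, was 9.94, 9.88 and 9.71 in DFAT cells, against 9.01, 9.78 and 9.93 in AC. Its groups overlapped, with a difference of 0.27 (95% confidence interval -0.28 to 0.83, adjusted p = 0.418 from limma), and the difference was -0.01 without AC replicate 1. Nob1 and Pno1 act as partners, and the difference between their changes was not tested.

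All 10 large subunit factors rose, with a median difference of 1.27. Nop2, a methyltransferase of 28S ribosomal RNA, was 9.19, 9.43 and 9.38 in DFAT cells, against 7.32, 7.48 and 7.68 in AC, a difference of 1.84 (SE 0.15, adjusted p = 3.59e-05 from limma). Noc2l was 8.56, 8.70 and 8.83 in DFAT cells, against 6.72, 7.07 and 6.79 in AC, a difference of 1.83 (SE 0.15, adjusted p = 3.88e-05 from limma). The groups of both genes lay well apart. With the arrays centered on the reference genes, 7 of the 10 passed the test. Noc3l, whose yeast counterpart binds that of Noc2l, had the smallest difference of the group. It was 7.32, 7.33 and 7.50 in DFAT cells, against 6.66, 6.77 and 6.74 in AC, a difference of 0.66 (SE 0.13, adjusted p = 0.00399 from limma), with no overlap. With the arrays centered on the reference genes it was 0.15 (adjusted p = 0.296 from limma).
Bop1, Pes1 and Wdr12 encode the 3 proteins of the PeBoW complex, which processes the precursor of the large subunit RNAs. Their differences were close to one another on the probe sets used here. They were 1.46 for Bop1 (SE 0.14), 1.26 for Pes1 (SE 0.17) and 1.28 for Wdr12 (SE 0.25). The other probe set of Pes1 had a difference of 0.62 with overlapping groups (adjusted p = 0.0833 from limma). That of Bop1 had 0.06 and those of Wdr12 had 1.65 and -0.05, each at background level on some arrays of both groups. Likeness among the 3 genes was not tested. Nop16 was 1.68 higher, Rrs1, which helps to bring in the 5S ribosomal RNA, was 1.10 higher, and Rrp1b and the helicase Ddx18 were each 0.78 higher. With the reference genes as the center, Rrp1b and Ddx18 were each 0.27 and missed the threshold (adjusted p = 0.179 and 0.0963 from limma).

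Of the 46 genes, 32 have several probe sets, and in 22 of these every probe set had the same call. None had probe sets called in opposite directions. Of all 97 probe sets, 80 rose, 1 fell and 16 did not pass the test, where 20.3% of all probe sets were higher and 18.1% lower (38.4% in either direction). Spread differed between the groups, with a median SD over the 46 genes of 0.06 in DFAT cells and 0.18 in AC.

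Myc itself did not rise. It was 10.40, 10.47 and 10.53 on the DFAT arrays, against 9.69, 11.72 and 11.60 on the AC arrays. The DFAT values lay between those of AC replicate 1 and those of the other AC arrays, so the groups overlapped, and the difference was -0.53 (95% confidence interval -1.66 to 0.59, adjusted p = 0.432 from limma). Myc is measured by 1 probe set. AC replicate 1 decided its call, as Myc fell by 1.19 on the log2 scale without that array (adjusted p = 8.56e-05 from limma), and was -0.18 and -0.24 without AC replicates 2 and 3. It fell by 1.01 when arrays were weighted by their reliability (adjusted p = 0.00811 from limma), and its difference was between -1.04 and -0.07 under the 4 other scalings. On AC replicate 1 the 14 macrophage and leukocyte markers were low and the 14 endothelial markers high, as given above, and their part in the level of Myc was not tested.

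The family and partners of Myc changed in both directions. Of 12 measured genes of the MYC family and the MAX network, 3 rose, 4 fell and 5 did not pass the test, with a median of -0.08. These shares, 25% higher and 33.3% lower, were near the 22.6% and 23.8% of all genes. With the arrays centered on the reference genes 2 rose and 6 fell, where 14.1% of all genes were higher and 61.3% lower. Centered on the hybridization controls 5 rose and 3 fell, where 28.1% of all genes were higher and 11.0% lower. Mycl, the L-Myc paralog, was 7.86, 7.51 and 7.84 in DFAT cells, against 5.88, 5.96 and 5.58 in AC, a difference of 1.93 (SE 0.16, adjusted p = 4.87e-05 from limma). Of its AC values, 2 lay at background level, so the size is not exact. Mycn, the N-Myc paralog, had a difference of 0.14 and overlapping groups (adjusted p = 0.47 from limma). Max, the shared partner, was 8.44, 8.49 and 8.49 in DFAT cells, against 7.49, 8.18 and 8.30 in AC, a difference of 0.48 that did not pass the test (adjusted p = 0.117 from limma).
The MXD proteins also pair with Max and repress the same kind of sites. Mxd3 was 8.41, 8.83 and 8.62 in DFAT cells, against 5.17, 5.08 and 4.89 in AC. It rose by 3.57 on the log2 scale (SE 0.16, adjusted p = 1.24e-06 from limma), with AC values at background level on all 3 arrays. Mxd4 was 7.58, 7.78 and 7.58 in DFAT cells, against 9.30, 8.73 and 8.98 in AC, and fell by 1.36 (SE 0.17, adjusted p = 0.000455 from limma). Mxd1 fell by 1.29 to background level in DFAT cells, while Mnt, another repressor of the network, rose by 0.73. Of the branch that answers to glucose, Mlx fell by 0.94 and Mlxipl by 5.63, where Mlxipl was at background level on all 3 DFAT arrays, so that its size is not exact. Mlxip, also of that branch, did not pass the test. Mxd3 is known from cells in S phase, and all 11 proliferation markers rose beside it, whose part in these values was not tested.
Among 15 measured cofactors and turnover genes of MYC, 9 rose (60%), 0 fell and 6 did not pass the test. Of all genes, 22.6% were higher and 23.8% lower. When the arrays were centered on the reference genes, 8 of the 15 were higher and 2 lower. Under that centering 14.1% of all genes were higher and 61.3% lower. Skp2, a ubiquitin ligase subunit of the cell cycle, and Aurka, the mitotic kinase Aurora A, rose by 5.07 and 4.77 from background level in AC. Both are also cell cycle genes. The helicases Ruvbl1 and Ruvbl2, which also assemble box C/D snoRNPs, rose by 1.74 and 1.31.

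**Figure D3:**
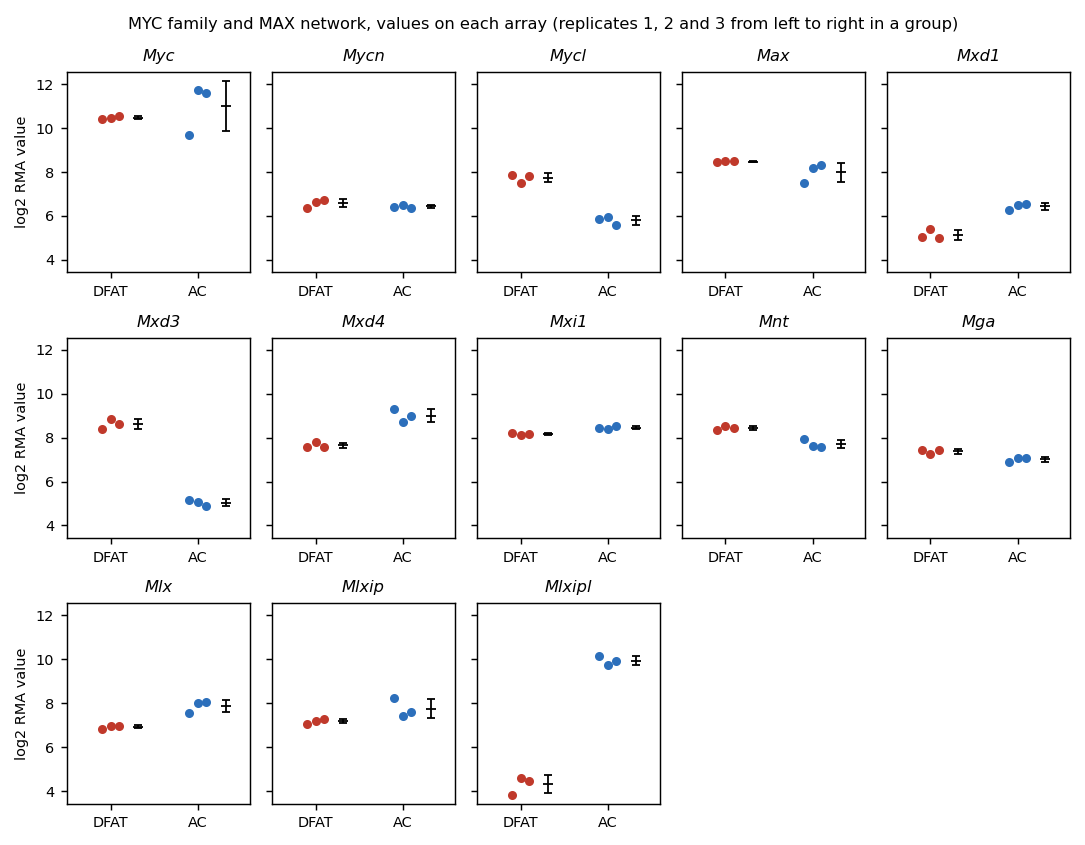
Log2 RMA values of Myc and 12 genes of the MYC family and the MAX network on each of the 3 DFAT arrays and 3 AC arrays, with the mean and SD of each group in black. Mxd3, Mycl and Mnt are higher in DFAT cells, Mlxipl, Mxd4, Mxd1 and Mlx are lower, and Myc has 1 AC array below and 2 AC arrays above the DFAT values.

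Since Myc binds CACGTG, the promoters of the 46 genes were searched for it. The windows were those of RefSeq on GRCm38.p6, 250 bases before to 50 bases after each annotated start, and 40 of the 46 genes had 1 or more. CACGTG, which reads the same on both strands, was found in the windows of 9 of these 40 genes (22.5%), against 10.2% of 14453 genes of the array with a window. Of 147 other pathway genes with a window (the MYC lists above and the lists below), 27 had it (18.4%). In 7 of the 9 genes among the 40 it lay after the start. In the 250 bases before the start only 2 of 40 genes (5.0%) had it, against 8.73% of the array's genes and 12.9% of the other pathway genes. The related sequence CACGCG, searched as CACGCG and CGCGTG to cover both strands and allowed to overlap CACGTG, was found for 15 of 40 genes (37.5%), against 16.2%, and before the start for 6 (15%), against 13.4%. Among the other pathway genes it was found for 27.9%, and before the start for 19.0%. Of the 9 genes with CACGTG, 8 rose, with a median difference of 1.27, and of the 31 without it 27 rose, with a median of 1.23. A match is a stretch of letters and not a site of binding. The matches are shown because they place the E-box beside genes whose values are given above, with CACGTG in capitals. For the pair of genes that have it before the start, 1 of which has it at 2 positions, longer stretches of the promoter are given.
Rrn3 (chr16:13780449-13780698, plus strand): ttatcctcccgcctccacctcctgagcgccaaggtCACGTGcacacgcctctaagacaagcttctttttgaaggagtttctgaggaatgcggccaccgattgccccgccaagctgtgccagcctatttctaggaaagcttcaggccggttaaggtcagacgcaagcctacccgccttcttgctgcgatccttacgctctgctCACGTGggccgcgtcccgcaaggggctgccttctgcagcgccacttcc
Nop2 (chr6:125131773-125131878, plus strand): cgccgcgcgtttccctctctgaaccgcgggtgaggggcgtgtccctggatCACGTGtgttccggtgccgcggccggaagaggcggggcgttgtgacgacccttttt
Utp20 (chr10:88826765-88826787, minus strand): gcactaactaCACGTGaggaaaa
Pes1 (chr11:3963967-3963992, plus strand): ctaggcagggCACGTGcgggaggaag
Mybbp1a (chr11:72441357-72441376, plus strand): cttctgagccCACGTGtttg
Tsr1 (chr11:74898094-74898119, plus strand): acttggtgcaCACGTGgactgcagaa
Pno1 (chr11:17211540-17211562, minus strand): tacaaccacgCACGTGttcctct
Ltv1 (chr10:13193094-13193119, minus strand): cctgtggaccCACGTGtggagctgcc
Wdr43 (chr17:71616222-71616247, plus strand): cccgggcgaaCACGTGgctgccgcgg
Counted from the start, the 2 matches in Rrn3 began at -215 and -48, and the match in Nop2 at -60. In the other 7 genes it began at base 3 to 41 after the start. Among these 9 genes, Utp20 had a difference of 2.36 and Nop2 of 1.84, while Pno1 had 0.27 and did not pass the test.

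The other genes of the pathway, with the MYC lists given above among them, were listed by role in the same way, without the 46 genes. Of 178 measured, 107 rose (60.1%), 11 fell (6.18%) and 60 did not pass the test, with a median of 0.73. The 12 genes of the MYC family and the MAX network gave 3 of these rises and 4 of these falls. The 15 cofactors and turnover genes of MYC gave 9 of the rises and 0 of the falls. Of all genes, 22.6% were higher and 23.8% lower. With the arrays centered on the reference genes, those shares were 14.1% and 61.3%. The factors of subunit assembly went with the 46 genes. Of 40 other small subunit factors, 27 rose and 1 fell, with a median of 0.89, and of 47 other large subunit factors, 32 rose and 1 fell, with a median of 0.85. Dimt1, a dimethylase of 18S ribosomal RNA, rose by 2.26. Nol10 rose by 1.93, but was at background level on all AC arrays and on 2 DFAT arrays. Rpf2, which with Rrs1 brings in the 5S particle, rose by 2.41, and Urb2 by 1.98 from background level. The exceptions were Riok3, an atypical kinase, which fell by 0.59, and Sbds, the gene of Shwachman-Diamond syndrome, which works with Efl1 in the release of Eif6 from the large subunit. Sbds was 8.54, 8.72 and 8.50 in DFAT cells, against 9.47, 9.86 and 9.87 in AC, and fell by 1.15 (adjusted p = 0.000687 from limma), while Eif6 rose by 1.39. With the arrays centered on the reference genes, 18 of the small subunit factors were higher and 5 lower, and 22 of the large subunit factors were higher and 5 lower. Centered on the hybridization controls, 0 of either list were lower.
Other genes of RNA polymerases I and III were more mixed, with 14 of 30 higher (46.7%), 2 lower (6.67%) and a median of 0.45. Of the genes with a mean level between the quartiles of the 46 genes, 39.0% were higher and 23.4% lower. With the arrays centered on the reference genes, 6 rose and 6 fell. Polr3a, the largest subunit of RNA polymerase III, rose by 1.42, and Polr1g, annotated on the array as Cd3eap, by 1.22. Polr3gl, the isoform of a polymerase III subunit that is known from differentiated cells, was 6.38, 6.41 and 6.30 in DFAT cells, against 8.26, 8.45 and 8.28 in AC. It fell by 1.97 (adjusted p = 1.02e-05 from limma), and Sirt7, a nucleolar deacetylase that promotes polymerase I transcription, fell by 0.91.
Of 24 genes of the RNA exosome and of RNases that cut or trim ribosomal RNA, 15 rose (62.5%) and 3 fell (12.5%). With the arrays centered on the reference genes, 11 were higher and 6 lower. Dis3, a catalytic exosome subunit, rose by 2.52, and Pop1 of RNase MRP by 2.31 from background level, whereas Pop5 of the same enzyme fell by 1.12. Rpp25, counted as a fall of 0.47, was at background level in both groups. Of 11 genes that host snoRNAs in their introns, 7 rose (63.6%) and 0 fell, with 4 higher and 2 lower under that centering. Snhg3 and Snhg4 rose by 2.68 and 2.51, and Snhg3 was at background level on 1 AC array.

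**Figure D4:**
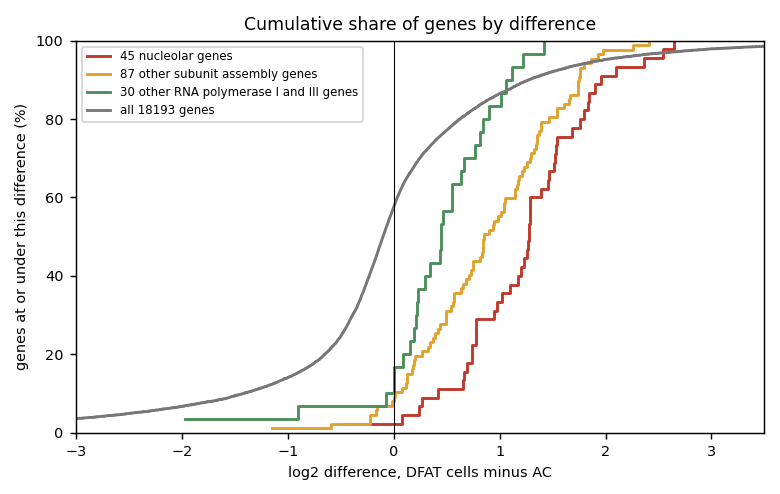
Cumulative share of genes, in percent, by log2 difference of DFAT cells minus AC, for the 45 nucleolar genes, 87 other subunit assembly genes, 30 other RNA polymerase I and III genes and all 18193 genes. The median is 1.28 for the nucleolar genes, 0.45 for the polymerase genes and -0.10 for all genes.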

How the data were processed

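The data were the log2 expression values deposited by the authors for 6 Affymetrix arrays, 3 of DFAT cells and 3 of AC, after RMA (background correction, normalization between arrays and probe summary) in R with affy. The version, and which arrays were normalized together, are not given in the sources used here. Groups came from the sample titles. Gene symbols were those of the platform annotation. Of 45037 tested, after 64 controls were left out, 34945 had 1 gene symbol, 932 had several and 9160 had none, and none of the 34741 matched by Entrez ID had another symbol in RefSeq (GRCm38.p6). The contrast DFAT minus AC was fitted by lmFit and eBayes of limma 3.58.1 under R 4.3.3 (two-sided, no filter, Benjamini-Hochberg over all probe sets, threshold 0.05). With 3 arrays a group, exact permutation cannot give a p below 0.1, so none was used. The step was tested on simulated data. The members and lists were chosen with earlier results of these data known. Named in full were, in each role, the 2 members with the largest difference past the test and without overlap and the member with the smallest, every member that fell or did not pass, Myc, and in each other list the 2 largest changes each way. Other members are given by their difference, and Mycn, Max, Mxd1, Mnt, Mlx, Mlxip, Eif6, Ruvbl1 and Ruvbl2 were added after their values were seen. The number of arrays limits the precision. Tables and figures were made with pandas 2.3.3, numpy 2.4.6 and matplotlib 3.10.9 (Python 3.11.15). Alternatives were other scalings, filters, variance models, tests, probe set choices, a replicate block, each array left out in turn and a shorter promoter window. Arrays of other cell types were not analysed here.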

Additional observations from a re-analysis of the deposited data

Results flagged for a closer look

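The array carries control probe sets for 18S ribosomal RNA, which no comparison in the report uses, and their signal was higher in DFAT cells than in AC. The probe set for the 3' part was 12.99, 13.12 and 13.04 on the DFAT arrays, against 11.41, 11.76 and 11.78 on the AC arrays, a difference of 1.40 (SE 0.15). For the 5' part the difference was 1.46 (SE 0.45), and for the middle part it was 2.05 (SE 0.44). On AC replicate 1 the 5' and middle parts were 10.96 and 10.10, against 12.88 and 12.66, and 11.97 and 11.74, on the other AC arrays. The label is made by priming on poly(A) tails, which 18S ribosomal RNA lacks, so the signal is not a measure of ribosome content.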

How the results depend on the processing

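The count of genes that rose, 40 of 46, was 31 to 42 under 13 of 14 alternatives and 4 under the methods' fold rule of 4-fold, and 39 to 40 without any 1 array. The count that fell, 1, was 0 with arrays centered on their median or on the hybridization controls, under the fold rule, with the replicate block, with the mean of all probe sets of a gene and with probe sets without _x_at, _s_at or _a_at endings, was 2 with arrays centered on the reference genes and with array weights, and was 0 to 2 without any 1 array. The median difference, 1.27, was 0.77 centered on the reference genes, 1.73 centered on the hybridization controls and 1.11 to 1.37 without any 1 array. The other pathway genes that rose, 107, numbered 71 centered on the reference genes, 9 under the fold rule and 89 to 117 without any 1 array. Those that fell, 11, numbered 31 centered on the reference genes, 4 centered on the hybridization controls and 18 with values set to the background level. Of all probe sets, 17285 were called, against 31964 centered on the reference genes, 38986 with values set to the background level, where the level itself differs between the groups, 3744 under the fold rule and 13160 to 20998 without any 1 array. The difference of Myc, -0.53, was -1.01 and past the test with array weights, and -1.19 to -0.18 without any 1 array. The share of promoters with CACGTG, 22.5%, was 5.0% in the bases before the start. The direction turned for Ubtf (-0.07 after quantile normalization again and -0.42 centered on the reference genes), for Nop14, Utp15 and Pno1 (-0.26, -0.09 and -0.23 centered on the reference genes), for Pno1 without AC replicate 1 (-0.01, with -0.01 to 0.45 over all arrays left out in turn) and for Nop10 (0.01 centered on the hybridization controls and 0.01 with probe sets without the endings). Calls were also lost for Polr1c, Rrp9, Ddx10, Noc4l, Ltv1, Rrp1b, Ddx18 and Noc3l (0.14 to 0.28) centered on the reference genes. They were lost for Gnl3, Rrp12, Wdr12 and Rrs1 under a t-test per probe set (adjusted p = 0.0503 to 0.0792 from that t-test). The methods name Student's t-test but state no test for the arrays. The mean of all probe sets of a gene gave 0.73 for Ubtf and 1.12 for Taf1d, both past the test. The cause was not tested. Same-numbered arrays of the groups had correlations of their deviations from the group means of -0.03 to 0.01. With 3 arrays a group, such values cannot show whether same-numbered arrays share an animal or a batch. With the replicate block 39 genes rose and 0 fell.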
